A study of Mus musculus with 8 samples.

Results

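The miR-125 family was measured here as 3 mature miRNAs, miR-125a-5p, miR-125b-5p and miR-125a-3p, taken by name from the 1960 miRNAs listed in both fluids. All 3 were detected in all 8 libraries and all 3 passed the filter on low counts in every comparison. Small RNA was sequenced from exosomes, vesicles shed by cells, of the cerebrospinal fluid (CSF) and the plasma of adult wild-type mice, and unique molecular identifiers (UMIs) were used to count molecules. DOCA-salt mice were given deoxycorticosterone acetate, a mineralocorticoid, with salt, a model of raised blood pressure, and baseline mice were untreated. Each fluid had 1 library of a DOCA-salt male, a baseline male, a DOCA-salt female and a baseline female, so CSF and plasma had 4 libraries each, all of batch 1. The labels state 8 mice and do not say whether mice were pooled, so p-values measure differences between unlike libraries and not the spread between mice of a group.

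The vertebrate miR-125 miRNAs are the homologues of lin-4, the worm miRNA that times larval development, and they are abundant in brain, muscle and many other tissues. A miRNA gene makes a hairpin whose 2 arms can each give a mature strand. The guide strand enters an Argonaute protein and represses messenger RNAs that pair with its seed, while the passenger strand is mostly degraded. In this family the 5p arm is the usual guide. Each miR-125 gene lies in a cluster with a gene of the miR-99/100 family and one of the let-7 family.

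The mature sequences show why the 2 guide strands are treated together and the 3p strand apart, with the seed (bases 2 to 8) in capitals. They come from RefSeq (build GRCm38.p6), where 20 of the 20 named miRNAs, the 3 members and 17 related ones, were found.
miR-125a-5p: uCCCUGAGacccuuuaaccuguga
miR-125b-5p: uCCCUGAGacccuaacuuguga
miR-351-5p: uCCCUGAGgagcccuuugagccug
miR-125a-3p: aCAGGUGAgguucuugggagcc
miR-125b-1-3p: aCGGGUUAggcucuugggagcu
miR-125b-2-3p: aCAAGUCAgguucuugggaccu

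The guides miR-125a-5p (24 bases) and miR-125b-5p (22 bases) shared their first 13 bases and differed by an edit distance of 3. Of 1679 mature mouse miRNAs in the RefSeq table, 5 carried the seed CCCUGAG, namely these 2, miR-351-5p, miR-6367 and miR-6394, and all 5 were listed in both fluids. miR-351-5p shared 8 first bases with miR-125a-5p and stood at an edit distance of 7. The 3 passenger strands had 3 different seeds, and miR-125a-3p stood at an edit distance of 4 from each of the other two. How the authors' counting treated reads that fit more than 1 of these miRNAs is not given in the sources used here, so a part of the counts of the 2 guides could be shared.

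The hairpins place the strands in their genes, with the mature 5p and 3p strands in capitals. Mir125a lies at chr17:17830812-17830879 and Mir125b-1 at chr9:41581926-41582002, both on the plus strand of GRCm38.
Mir125a: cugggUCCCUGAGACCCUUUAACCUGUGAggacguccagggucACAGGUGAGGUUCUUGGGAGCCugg
Mir125b-1: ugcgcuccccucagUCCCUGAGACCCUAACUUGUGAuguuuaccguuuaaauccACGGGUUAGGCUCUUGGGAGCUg

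In the GENCODE annotation of this build, the miR-125a-5p sequence (chr17:17830817-17830840) lay within an exon of a non-coding transcript of Spaca6, a sperm membrane protein gene, and miR-125a-3p (chr17:17830855-17830876) in an intron of Spaca6, all on the same strand. Its neighbours were Mirlet7e at 384 bases and Mir99b at 563 bases. miR-125b-5p is made by both Mir125b-1 and Mir125b-2, and its counts cannot be split between them. The Mir125b-1 copy (chr9:41581940-41581961) lay in introns of the non-coding genes 3110039I08Rik and Gm49317 and in the exon of Gm28119, 45.1 kb from Mirlet7a-2 and 50.4 kb from Mir100. The Mir125b-2 copy (chr16:77646279-77646300) lay in an intron of the non-coding Mir99ahg, 46.5 kb from Mirlet7c-1 and 47.3 kb from Mir99a. The deposited tables list miR-125b-5p at the chromosome 16 copy.

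Counted over the miRNAs listed for each fluid, CSF held 1082504 UMIs in the DOCA-salt male and 753144 in the baseline male. The DOCA-salt female of CSF held 303625 and the baseline female 237878. Plasma libraries held between 158572 and 337240 UMIs. Striated-muscle miRNAs (miR-1a, miR-133, miR-206 and the myosin-gene miRNAs) took 36.3% to 56.6% of UMIs in CSF libraries and 0.290% to 1.503% in plasma libraries. Within CSF they took 49.1% in the DOCA-salt male and 56.6% in the baseline male, against 36.3% in the DOCA-salt female and 38.7% in the baseline female. Erythrocyte miRNAs took 1.80% to 4.84% in CSF and 9.61% to 16.6% in plasma, leukocyte and platelet miRNAs 0.368% to 0.550% and 2.63% to 3.01%, and endothelial miRNAs 0.195% to 0.625% and 1.39% to 3.36%. Choroid plexus miRNAs took 0.0252% to 0.0364% in CSF and 0.0160% to 0.0218% in plasma. These ranges did not overlap, but they rest on 60 to 394 UMIs a library in CSF and 26 to 61 in plasma. Their counting error was not computed. The shares of neuron miRNAs (0.198% to 0.333% and 0.170% to 0.314%) and oligodendrocyte miRNAs (0.0152% to 0.0359% and 0.0122% to 0.0277%) overlapped between CSF and plasma. Liver miR-122-5p took 0.0265% to 0.0809% in CSF and 0.208% to 0.404% in plasma, the epithelial list 0.00388% to 0.0118% and 0.123% to 0.794%, and the smooth muscle list 0.917% to 1.38% and 2.01% to 3.42%. Every member of each list had at least 1 UMI in each library. Their part in the results on the miR-125 family was not tested. Fewer vesicles from a cell type cannot be told apart from less miRNA per vesicle in such samples. A larger share of the muscle list also lowers the shares of the other lists.

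The family took 5.64% ± 1.94 of UMIs in CSF and 6.37% ± 1.73 in plasma (SD, n = 4 each). By library it took 8.46% in the DOCA-salt male, 4.48% in the baseline male, 4.22% in the DOCA-salt female and 5.43% in the baseline female of CSF. In plasma it took 6.57% in the DOCA-salt male, 4.43% in the baseline male, 8.59% in the DOCA-salt female and 5.88% in the baseline female. The ranges of the fluids overlapped almost wholly. The highest library was of DOCA-salt in each fluid, but the lowest library of CSF was of DOCA-salt as well, the female at 4.22%. Counted outside the muscle list, the family took 16.6%, 10.3%, 6.62% and 8.85% of CSF UMIs, in the same order of libraries, against 6.67%, 4.45%, 8.64% and 5.92% of plasma UMIs.

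miR-125b-5p was the most abundant member in 7 of the 8 libraries. It had 60850 UMIs in the DOCA-salt male, 23679 in the baseline male, 6818 in the DOCA-salt female and 5480 in the baseline female of CSF, or 5.62%, 3.14%, 2.25% and 2.30% of the library. In plasma it had 11734 UMIs in the DOCA-salt male, 3927 in the baseline male, 17787 in the DOCA-salt female and 10505 in the baseline female, or 3.85%, 2.48%, 5.27% and 3.75%. Both CSF males stood above both CSF females, whereas in plasma the DOCA-salt female was highest and the baseline male lowest. It ranked 4th to 9th among all miRNAs of a CSF library and 3rd to 9th in plasma. In the order of its 8 shares, the 95% exact Clopper-Pearson intervals of neighbours overlapped for the DOCA-salt male and baseline female of plasma and for the DOCA-salt and baseline females of CSF. All intervals here cover counting error only.

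miR-125a-5p had 30630 UMIs in the DOCA-salt male, 10010 in the baseline male, 5969 in the DOCA-salt female and 7383 in the baseline female of CSF, or 2.83%, 1.33%, 1.97% and 3.10% of the library. In plasma it had 8248 UMIs in the DOCA-salt male, 3077 in the baseline male, 11133 in the DOCA-salt female and 5926 in the baseline female, or 2.71%, 1.94%, 3.30% and 2.12%. The sexes did not separate in CSF, where the baseline female was highest and the baseline male lowest. It ranked 7th to 12th in each fluid. Only the DOCA-salt female of CSF and the baseline male of plasma, neighbours in the order of its shares, had overlapping intervals.

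miR-125a-3p, the passenger strand of Mir125a, was scarce, with 49 UMIs in the DOCA-salt male, 18 in the baseline male, 32 in the DOCA-salt female and 46 in the baseline female of CSF. In plasma it had 42, 25, 40 and 38 UMIs in the same order of libraries. As shares these were 0.00453%, 0.00239%, 0.0105% and 0.0193% in CSF, with intervals from 0.00142% to 0.00378% for the lowest and from 0.0142% to 0.0258% for the highest. The 4 plasma shares, 0.0138%, 0.0158%, 0.0119% and 0.0136%, had overlapping intervals. The CSF females stood above the CSF males. In plasma the shares of the 2 males stood above those of the 2 females, within the overlapping intervals. It ranked 211th to 598th in CSF and 467th to 521st in plasma.

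**Figure D1:**
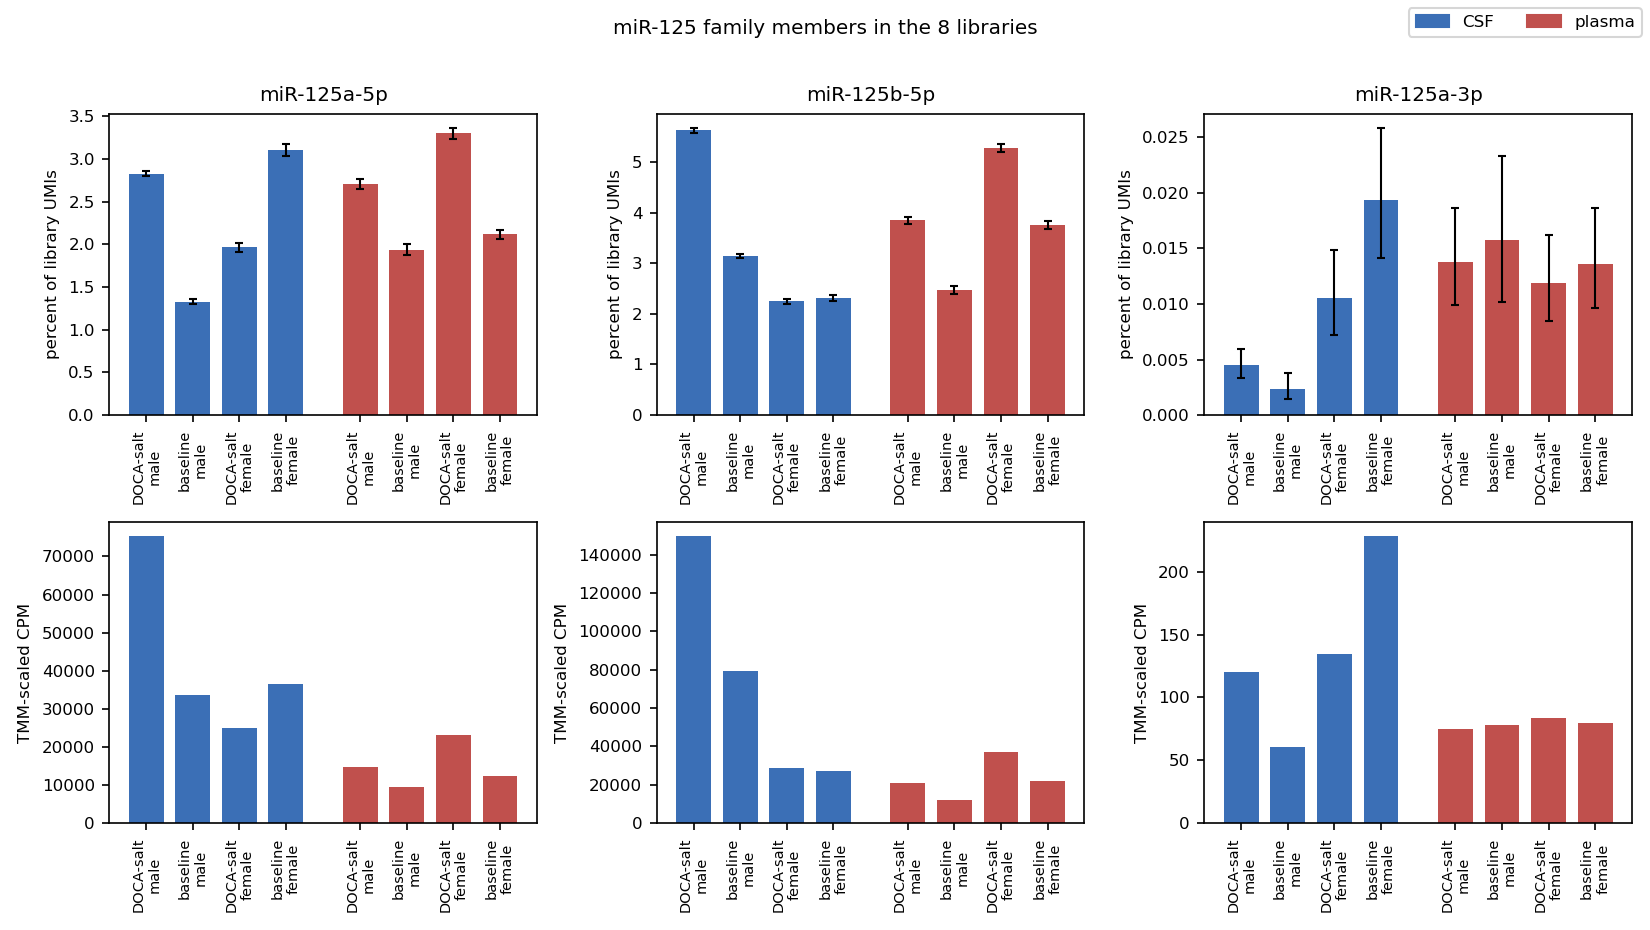
Levels of the 3 miR-125 family members in each library. The upper row gives the percent of library UMIs with the 95% exact Clopper-Pearson interval, the lower row the TMM-scaled CPM with no error, with CSF in blue left of plasma in red. miR-125b-5p reached 5.62% in the DOCA-salt male of CSF and 5.27% in the DOCA-salt female of plasma, and on the scaled axis the CSF bars stand higher relative to plasma than on the percent axis.

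The 2 guides made up nearly all of the CCCUGAG seed. miR-125b-5p held 66.5% of the UMIs with this seed in the DOCA-salt male, 70.2% in the baseline male, 53.2% in the DOCA-salt female and 42.5% in the baseline female of CSF. In plasma it held 58.4% in the DOCA-salt male, 55.6% in the baseline male, 61.3% in the DOCA-salt female and 63.6% in the baseline female. miR-351-5p, miR-6367 and miR-6394 together held 0.0819% to 0.164% in CSF and 0.321% to 0.920% in plasma. The baseline female of CSF was the one library in which miR-125a-5p was the commoner guide, with 57.3%.

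The comparison of fluids asked whether the family differed between CSF and plasma exosomes, and its answer for the guides depended on how libraries were scaled. Scaled by the trimmed mean of M-values (TMM), which sets the bulk of miRNAs equal between libraries, miR-125b-5p averaged 71238 ± 57643 CPM in CSF and 23105 ± 10347 CPM in plasma (SD, n = 4 each). miR-125a-5p averaged 42651 ± 22316 CPM in CSF and 15005 ± 5883 CPM in plasma, and miR-125a-3p 136 ± 69.4 CPM in CSF and 79.1 ± 3.66 CPM in plasma. CPM here is the UMI count relative to the TMM-scaled library size. TMM values of miR-125a-5p ran from 25034 to 75302 CPM in CSF and from 9588 to 23252 CPM in plasma. These ranges did not overlap, while those of the other members did. As shares of UMIs the ranges of miR-125a-5p overlapped, with 1.33% to 3.10% in CSF and 1.94% to 3.30% in plasma. How many of all miRNAs had TMM values without overlap was not counted. The TMM factors were 0.377 to 0.856 for CSF and 1.44 to 2.08 for plasma, and they were lowest, at 0.377 and 0.397, in the DOCA-salt and baseline males of CSF.

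By the quasi-likelihood test of edgeR, adjusted after Benjamini and Hochberg, 2 of the 3 members were higher in CSF. The share among all miRNAs was 51.7% (593 of 1146), with 300 higher (26.2%) and 293 lower (25.6%). The log2 fold change was 1.51 ± 0.55 for miR-125a-5p (SE, adjusted p = 0.0275) and 1.62 ± 0.64 for miR-125b-5p (adjusted p = 0.0411), with TMM and not with total-count scaling. With a block for each matched combination of sex and treatment neither guide passed (1.53, adjusted p = 0.0693, and 1.43, adjusted p = 0.159). miR-125a-3p did not pass, at 0.76 ± 0.38 (adjusted p = 0.101). The median of all tested miRNAs was -0.12, and the guides stood at percentiles 82.5 and 83.9 of all fold changes.

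With total-count scaling the sign of all 3 differences turned, to -0.15 for miR-125a-5p (edgeR adjusted p = 0.760), -0.23 for miR-125b-5p (adjusted p = 0.643) and -0.65 for miR-125a-3p (adjusted p = 0.288). That scaling moved the median of all miRNAs to -1.72 and the split of calls to 63 higher and 734 lower. Scaled by the UMIs outside the muscle list, the guides stood at 0.71 (adjusted p = 0.112) and 0.71 (adjusted p = 0.148). The shares of UMIs themselves did not separate the fluids in a two-sided exact permutation test (p = 0.629 for miR-125a-5p, p = 0.457 for miR-125b-5p and p = 0.257 for miR-125a-3p, unadjusted, smallest possible 0.0286).

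The 4 pairs of CSF and plasma libraries, matched by sex and treatment only, differed in size. Whether the 2 libraries of a pair came from the same mice is not stated. For miR-125b-5p the CSF library exceeded the plasma library by 2.84 and 2.701 on the log2 TMM scale in DOCA-salt and baseline males, against -0.38 and 0.30 in DOCA-salt and baseline females. For miR-125a-5p the pairs gave 2.36 in DOCA-salt males, 1.81 in baseline males, 0.11 in DOCA-salt females and 1.55 in baseline females. For miR-125a-3p they gave 0.68, -0.34, 0.69 and 1.51 in that order. Leaving out the DOCA-salt male of CSF lowered the fold change to 1.02 for miR-125b-5p (edgeR adjusted p = 0.169) and to 1.10 for miR-125a-5p (adjusted p = 0.0853). Both calls were lost as well without the DOCA-salt male, the baseline male or the baseline female of plasma (adjusted p from 0.0705 to 0.0890 for miR-125a-5p and from 0.0981 to 0.111 for miR-125b-5p), and that of miR-125b-5p also without the baseline male of CSF (log2 fold change 1.63, adjusted p = 0.0764).

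**Figure D2:**
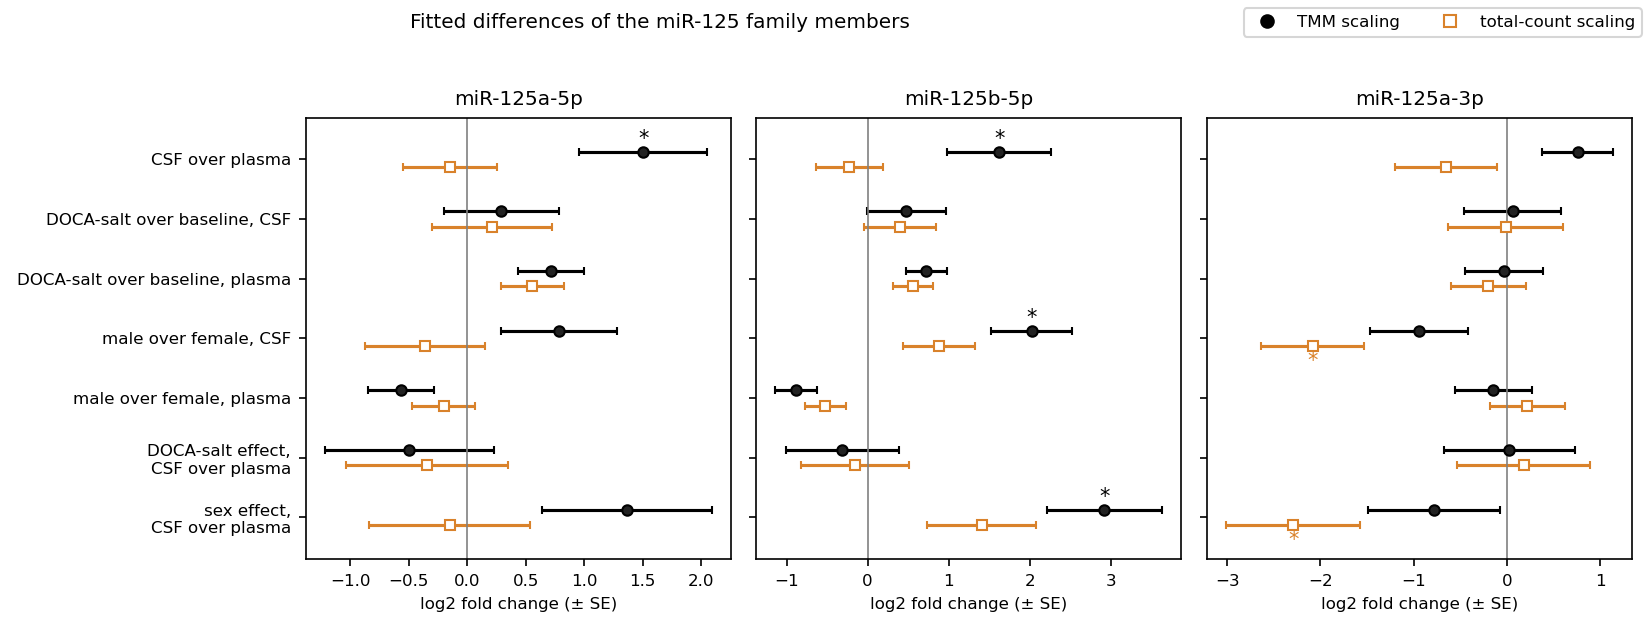
Fitted log2 fold changes (± SE) of each member in 7 comparisons, with TMM scaling as black circles and total-count scaling as open orange squares. An asterisk marks an edgeR adjusted p under 0.05. The 2 scalings part most in CSF over plasma and in the comparisons that involve the sexes in CSF, where for miR-125b-5p the male over female value is 2.02 with TMM and 0.88 with total counts.

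Ratios of 2 miRNAs inside a library do not depend on scaling, and 7 were compared between the fluids with a two-sided exact permutation test of log2 ratios. The ratio of miR-125a-5p to miR-125b-5p was 0.503 in the DOCA-salt male, 0.423 in the baseline male, 0.875 in the DOCA-salt female and 1.35 in the baseline female of CSF. In plasma it was 0.703 in the DOCA-salt male, 0.784 in the baseline male, 0.626 in the DOCA-salt female and 0.564 in the baseline female. Both CSF males lay below the plasma range and both CSF females above it, and the means of the fluids differed by 0.09 on the log2 scale (exact p = 0.8286). The guide to passenger ratio of Mir125a, miR-125a-5p over miR-125a-3p, was 625 and 556 in DOCA-salt and baseline males and 187 and 160.5 in DOCA-salt and baseline females of CSF, and 123 to 278 in plasma. Its difference between fluids was 0.82 (exact p = 0.257).

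Against its cluster neighbours, miR-125a-5p was relatively more abundant in CSF. It exceeded let-7e-5p, the let-7 guide made 384 bases away, 23.3-fold in the DOCA-salt male, 19.5-fold in the baseline male, 24.7-fold in the DOCA-salt female and 43.4-fold in the baseline female of CSF. In plasma it did so 5.26-fold, 4.09-fold, 5.51-fold and 4.96-fold in the same order. It exceeded miR-99b-5p 19.5-fold, 26.5-fold, 17.7-fold and 49.6-fold in CSF and 9.77-fold, 11.8-fold, 10.5-fold and 9.54-fold in plasma. Neither ratio overlapped between the fluids, with log2 differences of 2.42 and 1.32 at the smallest p that 4 against 4 libraries allow (exact p = 0.0286 each, adjusted p = 0.0667 over 7 ratios), so neither passed after adjustment.

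For miR-125b-5p the neighbours gave mixed results. Its ratio to let-7c-5p, which is also made elsewhere, was 1.01, 0.974, 1.40 and 1.38 in the DOCA-salt male, baseline male, DOCA-salt female and baseline female of CSF, and 0.686, 0.663, 0.929 and 0.777 in plasma in that order. These did not overlap, with a log2 difference of 0.63 (exact p = 0.0286, adjusted p = 0.0667). Its ratio to miR-99a-5p, from the Mir125b-2 cluster, was 35.7, 43.4, 11.7 and 16.7 in CSF, and 41.5, 65.5, 47.7 and 45.9 in plasma. Here CSF was the lower fluid, by -1.07 on the log2 scale, with the baseline male of CSF inside the plasma range (exact p = 0.0571, adjusted p = 0.1).

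The last ratio set miR-125b-5p against miR-100-5p, from the Mir125b-1 cluster, at 111, 67.3, 42.6 and 40.0 in CSF and 66.7, 29.8, 72.9 and 63.7 in plasma. The fluids overlapped (log2 difference 0.12, exact p = 0.8286). With reads in place of UMIs that difference turned to -1.23, and miR-100-5p had 1.52 to 2.03 reads per UMI in plasma where miR-125b-5p had 3.76 to 5.01.

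**Figure D3:**
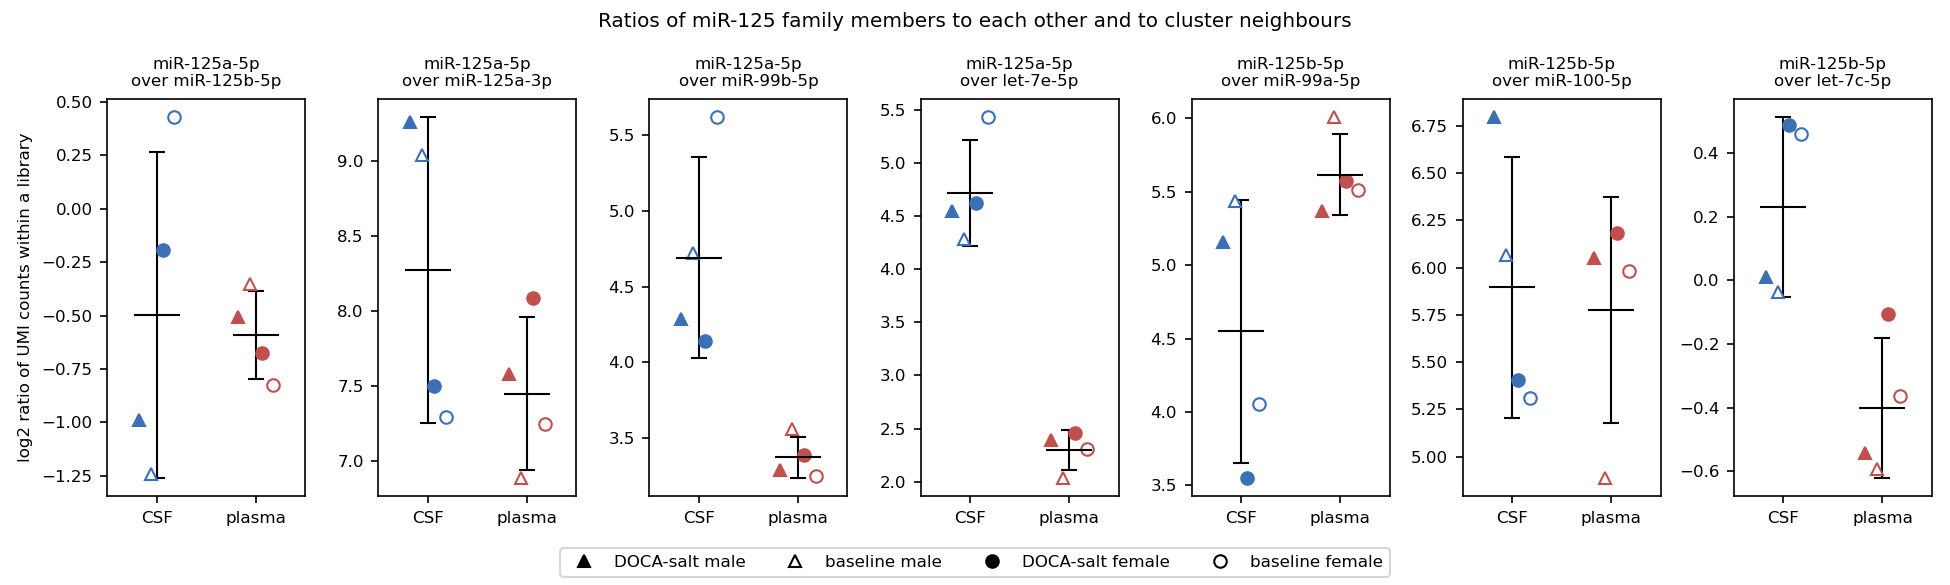
Within-library log2 ratios of UMI counts for 7 pairs of miRNAs in 4 CSF (blue) and 4 plasma (red) libraries, with the mean ± SD as bars, triangles for males, circles for females, and filled symbols for DOCA-salt. The ratios of miR-125a-5p to miR-99b-5p and let-7e-5p and of miR-125b-5p to let-7c-5p do not overlap between the fluids. In CSF several ratios separate males from females, but the separation of the sexes was not tested. So few libraries of each sex can easily separate by chance. Every ratio contains miR-125a-5p or miR-125b-5p, so the ratios are not separate observations.

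The list of related miRNAs, for the 3 loci and Mir351, held 17 names, of which 14 passed the count filter. It included let-7c-2-3p, whose gene lies on chromosome 15, and let-7a-5p, which the RefSeq sequences list at Mirlet7a-1 on chromosome 13. Of the 14, 4 were higher in CSF and 2 lower (let-7c-2-3p among them) by the edgeR test with TMM, and 8 did not pass. Among all miRNAs 26.2% were higher and 25.6% lower. The median log2 fold change of the 14 was 0.37, beside -0.12 over all miRNAs. The Mir99 and Mir100 guides stood at 2.37 ± 0.48 for miR-99a-5p (adjusted p = 4.30e-04), 1.29 ± 0.38 for miR-100-5p (adjusted p = 0.00864) and 0.32 ± 0.49 for miR-99b-5p (adjusted p = 0.607), and with total-count scaling at 0.77 (adjusted p = 0.125), -0.41 (adjusted p = 0.375) and -1.43 (adjusted p = 0.00623). let-7e-5p stood at -0.80 ± 0.46 and let-7a-5p at -0.42 ± 0.53, neither of which passed with TMM, while both were lower in CSF with total-count scaling (-2.58 and -2.24). The passenger strands miR-125b-1-3p (0.42 ± 0.35) and miR-125b-2-3p (0.52 ± 0.37) did not pass, as for miR-125a-3p.

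Of the seed relative's 2 strands, miR-351-5p had 51, 26, 12 and 5 UMIs in the DOCA-salt male, baseline male, DOCA-salt female and baseline female of CSF, and 64, 33, 68 and 57 in plasma in that order. It stood at -0.68 ± 0.40 with TMM and did not pass (edgeR adjusted p = 0.162), but was lower in CSF with total-count scaling (-2.51, adjusted p = 8.07e-05). Its other strand miR-351-3p was higher in CSF by 3.21 ± 0.47 (adjusted p = 1.87e-05), and with total-count scaling by 1.81 (adjusted p = 0.0117), although it counted between 24 and 81 UMIs in CSF and between 4 and 14 in plasma. The other calls were miR-99b-3p, higher by 1.32 with TMM but at -0.25 with total-count scaling, and let-7a-2-3p (-1.05) and let-7c-2-3p (-1.59), lower with both scalings.

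**Figure D4:**
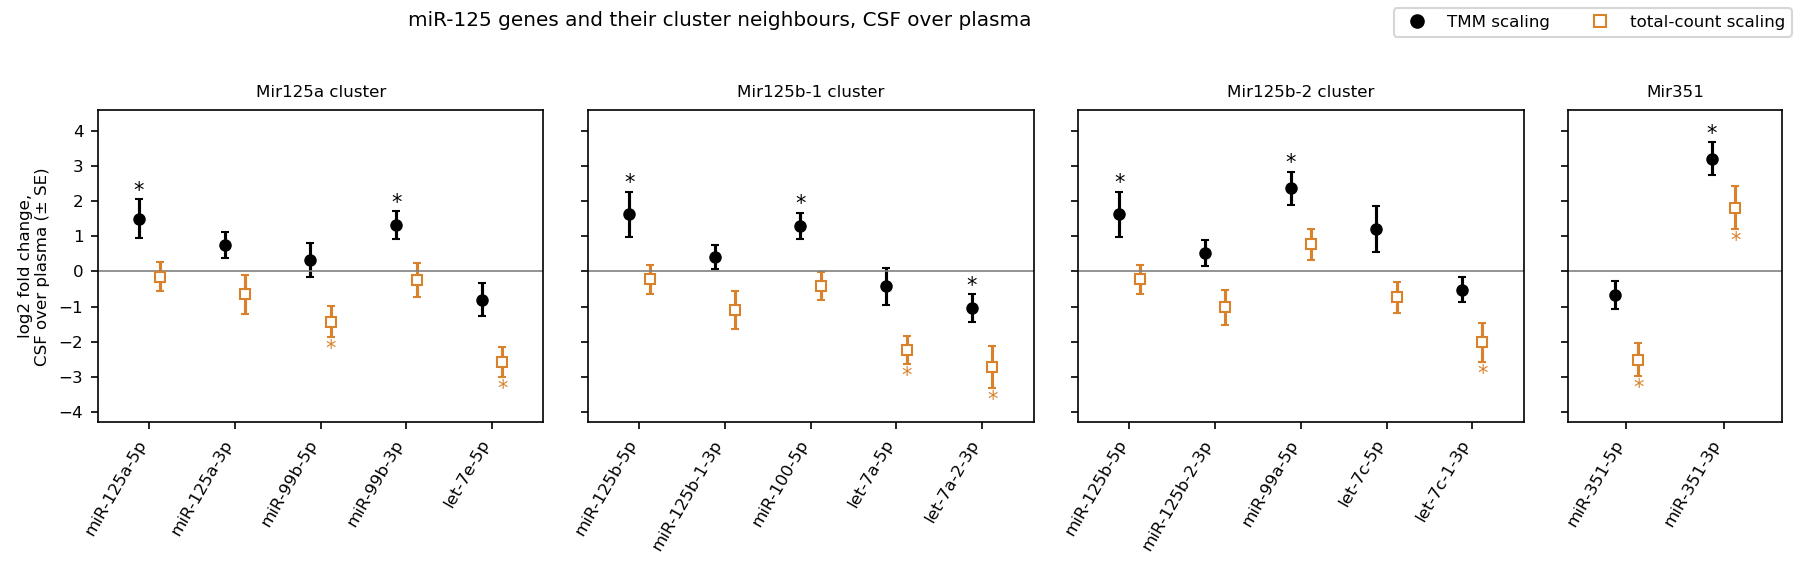
CSF over plasma log2 fold change (± SE) of the miR-125 miRNAs, the miRNAs of the same clusters and the 2 strands of Mir351, with TMM scaling as black circles and total-count scaling as open orange squares. An asterisk marks an edgeR adjusted p under 0.05, and miR-125b-5p appears under both of its genes. let-7a-5p is drawn with the Mir125b-1 cluster, though the RefSeq sequences list it at Mirlet7a-1 on chromosome 13. Within each cluster the miR-99 or miR-100 and miR-125 strands stand above the let-7 strands, except for let-7c-5p.

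The sexes differed in CSF for 1 member. miR-125b-5p was higher in males than in females, with 149597 and 79568 CPM (TMM) in the DOCA-salt and baseline males and 28595 and 27191 CPM in the DOCA-salt and baseline females. The log2 fold change of male over female was 2.02 ± 0.50 in the fit of the 4 CSF libraries with sex and treatment as terms (edgeR adjusted p = 0.00362), with 2.39 in the DOCA-salt pair and 1.55 in the baseline pair. In this comparison 54 of 1036 miRNAs passed (5.21%), 33 of them higher in males (3.19%), and the value of miR-125b-5p stood at percentile 98.1.

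With total-count scaling it was 0.88 and did not pass (edgeR adjusted p = 0.120), the median of all miRNAs was -1.20, beside -0.06 with TMM, and the calls were 6 higher and 353 lower. On the percent scale the males held 5.62% and 3.14% and the females 2.25% and 2.30%. The call was also lost without the DOCA-salt male (log2 fold change 1.59, adjusted p = 0.0830), the baseline female (2.08, adjusted p = 0.514) or the DOCA-salt female (2.17, adjusted p = 0.748). It was kept without the baseline male. Those fits of 3 libraries carry the term of sex alone, and the CSF males also had 753144 to 1082504 UMIs, against 237878 to 303625 in the CSF females, and more muscle miRNAs. Depth and muscle share cannot be told apart from sex here.

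The other guide, miR-125a-5p, had 75302 and 33636 CPM in DOCA-salt and baseline males and 25034 and 36633 CPM in DOCA-salt and baseline females of CSF. The sexes overlapped, with a log2 fold change of 0.79 ± 0.49 (edgeR adjusted p = 0.450) that turned to -0.36 with total-count scaling. It ran, with 1 library left out, from 0.20 (without the DOCA-salt male) to 1.42 (without the baseline male). miR-125a-3p had 120 and 60.5 CPM in the males and 134 and 228 CPM in the females, a log2 fold change of -0.94 ± 0.53 (adjusted p = 0.350) that ran from -1.49 (without the DOCA-salt male) to -0.45 (without the baseline male) with 1 library left out. With total-count scaling it stood at -2.08 and passed (adjusted p = 0.0254), on 18 to 49 UMIs a library. Among the related miRNAs, let-7c-5p (2.51 ± 0.51, adjusted p = 1.54e-04) and let-7a-5p (1.5 ± 0.48, adjusted p = 0.0422) were higher in CSF males, at 1.37 (adjusted p = 0.0393) and 0.35 (adjusted p = 0.488) with total-count scaling, while miR-99a-5p (0.53) and miR-100-5p (0.95), the cluster partners of miR-125b-5p, did not pass.

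In plasma no member passed between the sexes, where 2 of 1398 miRNAs did (0.143%). miR-125b-5p had 20910 and 12236 CPM in DOCA-salt and baseline males and 37150 and 22124 CPM in DOCA-salt and baseline females, all males below all females on the TMM scale. As shares of UMIs the DOCA-salt male (3.85%) stood above the baseline female (3.75%), with overlapping intervals. The log2 fold change of miR-125b-5p, male over female, was -0.88 ± 0.25 (edgeR adjusted p = 0.157). miR-125a-5p stood at -0.56 ± 0.28 (adjusted p = 0.646) and miR-125a-3p at -0.14 ± 0.42 (adjusted p = 0.962). With 1 library left out, and sex then the only term, miR-125b-5p ran from -1.33 (without the DOCA-salt male) to -0.47 (without the DOCA-salt female). In those fits miR-125a-5p ran from -0.99 (without the baseline female) to -0.088 (without the DOCA-salt female).

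The difference of the sex effect between the fluids, the male over female change in CSF minus that in plasma, was tested as an interaction over all 8 libraries. miR-125b-5p passed with 2.92 ± 0.71 (edgeR adjusted p = 0.0370), 1 of 12 among 1465 miRNAs (0.819%) and 1 of 7 with a positive value (0.478%), beside 5 with a negative value (0.341%). let-7c-5p was another, at 3.08 ± 0.72 (adjusted p = 0.0370). miR-125a-5p stood at 1.37 ± 0.72 (adjusted p = 0.4995) and miR-125a-3p at -0.78 ± 0.71 (adjusted p = 0.745). With total-count scaling miR-125b-5p did not reach the threshold at 1.41 (adjusted p = 0.104) and 321 miRNAs passed, all negative. Leaving out any 1 CSF library also lost the call, with adjusted p between 0.103 and 0.305.

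DOCA-salt was set against baseline within each fluid, the comparison named in the study's title. In plasma both guides were higher in both DOCA-salt libraries than in the baseline library of the same sex, with no call. miR-125b-5p had 20910 and 37150 CPM in the DOCA-salt male and female and 12236 and 22124 CPM in the baseline male and female. miR-125a-5p had 14698 and 23252 CPM in the DOCA-salt male and female and 9588 and 12480 CPM in the baseline male and female. The pair differences were 0.77 in males and 0.75 in females for miR-125b-5p, and 0.62 in males and 0.90 in females for miR-125a-5p.

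The fitted log2 fold changes in plasma were 0.72 ± 0.25 for miR-125b-5p (edgeR adjusted p = 0.162) and 0.72 ± 0.28 for miR-125a-5p (adjusted p = 0.209). They stood at percentiles 88.3 and 88.1 of all tested miRNAs, of which 15 of 1398 passed (1.07%), and kept their sign in all 11 alternatives each. Leaving out 1 library at a time left treatment as the only term, so the difference between the sexes enters those values. For miR-125b-5p they ran from 0.25 (without the DOCA-salt female) to 1.28 (without the baseline female). For miR-125a-5p they ran from 0.39 (without the DOCA-salt female) to 1.09 (without the DOCA-salt male). miR-125a-3p stood at -0.03 ± 0.42, with 74.8 and 83.5 CPM in the DOCA-salt male and female and 77.9 and 80.0 CPM in the baseline male and female, which is within counting error in both pairs.

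In CSF 2 of 1036 miRNAs passed (0.193%), 1 higher and 1 lower (0.0965% each), and no member did. miR-125b-5p was 0.91 higher on the log2 scale in the DOCA-salt male than in the baseline male and 0.07 higher in the female pair, and the fit gave 0.48 ± 0.49 (edgeR adjusted p = 0.855). The pairs of miR-125a-5p had opposite signs, 1.16 between the males and -0.55 between the females (fit 0.29 ± 0.49, adjusted p = 0.913). So had those of miR-125a-3p, 0.95 between the males and -0.75 between the females (fit 0.06 ± 0.52, adjusted p = 0.987). A difference between these pairs could not be tested with 1 library per combination.

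The DOCA-salt effect in CSF minus that in plasma was -0.50 for miR-125a-5p, -0.31 for miR-125b-5p and 0.03 for miR-125a-3p. The edgeR test called 0 of 1465 miRNAs, with 113 at an unadjusted p under 0.05, and DESeq2's Wald test called 1. Of the related miRNAs, 0 of 14 tested in plasma and 0 of 13 tested in CSF passed between DOCA-salt and baseline, with median log2 fold changes of 0.23 and 0.55 beside -0.03 and 0.01 over all miRNAs.

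The miRNAs whose TMM-scaled pattern over the 8 libraries was most like each member were found among 730 with a mean of at least 20 UMIs. For miR-125a-5p these were miR-574-3p (r = 0.961, and 0.915 after centring each fluid), let-7d-5p (0.960 and 0.883) and let-7b-5p (0.952 and 0.873). For miR-125b-5p they were miR-361-5p (0.954 and 0.923), let-7g-5p (0.949 and 0.914) and let-7c-5p (0.934 and 0.976). The 2 guides had r = 0.894 with each other (0.841 after centring). For the passenger miR-125a-3p the nearest were miR-3063-3p (0.798 and 0.727), miR-667-3p (0.768 and 0.802) and miR-6909-3p (0.762 and 0.659), and its r with its own guide was 0.466 (0.029 after centring). These correlations describe 8 libraries that share their scaling factors and depths.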

How the data were processed

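RNA was prepared with the Qiagen miRNeasy Micro kit and sequenced from QIAseq miRNA libraries that carry UMIs, per the labels' protocols. Reads were trimmed with Cutadapt 2.7. Bowtie 1.3.0, edgeR and the builds mm10 and GRCm38 are named in the submitters' processing notes. The deposited UMI and read columns hold counts per mature miRNA. The deposited CPM columns equal UMIs scaled to the library total, except in 2 CSF entries (miR-1a-3p and miR-206-3p, whose CPM values stand exchanged). CPM columns were not used further. Reads assigned to the listed miRNAs ran from 301241 to 1833069 per library.

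Differences were tested with edgeR 4.0.16 and limma 3.58.1 in R 4.3.3: filterByExpr, TMM, quasi-likelihood fit of UMI counts on all miRNAs, Benjamini-Hochberg adjustment, threshold 0.05. Models were fluid alone over 8 libraries, sex and treatment within a fluid over 4 libraries, and fluid with fluid-specific sex and treatment terms over 8 for differences between fluids. Within a fluid 1 residual degree of freedom was left, so spread was largely borrowed across miRNAs. Log2 ratios within a library and their likeness used a prior count of 1, and ratios were tested by exact permutation (scipy 1.17.1). Alternatives were DESeq2 size factors, total-count scaling, the DESeq2 1.42.0 Wald test, no count filter, read counts, other models, a prior count of 5 and each library left out. With 1 library left out within a fluid, sex or treatment alone was the term, so the other factor enters those values. Total-count scaling outside the muscle list and the permutation test of shares were chosen after seeing the data. The fit was tested on simulated data with known changes. Raised and lowered miRNAs were planted in equal number there, most miRNAs were unchanged, and no shift of the muscle list was simulated. The 2 fluids differed from that setting. Of 2-fold changes it recovered 34.7% for CSF over plasma, and for DOCA-salt over baseline 13.0% in CSF and 6.67% in plasma. Of 4-fold changes it recovered 93.8%, 77.8% and 80% in that order. Among unchanged miRNAs it called 8 of 886, 12 of 726 and 2 of 1128 in the same order. A missing call between DOCA-salt and baseline therefore says little about changes near 2-fold.

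Sequences came from RefSeq tables and gene context from GENCODE. Named miRNAs were the 3 members, the 17 of their loci and seed, and the 3 of most similar pattern per member. let-7c-2-3p was on that list although its gene lies on chromosome 15. The members, lists and tests were chosen with earlier results of these data known.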

Additional observations from a re-analysis of the deposited data

Results flagged for a closer look

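The log2 ratio of miR-125b-5p to miR-100-5p in the baseline male of plasma, 4.88, lay far from the other 3 plasma libraries. Of 32 groups of 4 libraries checked, this was the 1 in which a library stood apart by Dixon's test, and chance flags about 1 group in 20. It rests on 132 UMIs of miR-100-5p.

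The male over female change was larger in CSF than in plasma by 2.92 for miR-125b-5p and by 3.08 for let-7c-5p on the log2 scale, by the interaction test given in the report. Both values were near each other. The 2 miRNAs had r = 0.934 over the same 8 libraries, so this r is no separate evidence for the values.

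Some pairs of libraries differed in sign, and this difference was not tested. miR-125a-5p was 1.16 higher in DOCA-salt than baseline CSF in males and -0.55 in females, on the log2 TMM scale. Its male over female ratio in CSF was 1.59 under DOCA-salt and -0.12 at baseline. miR-125a-3p was 0.95 higher with DOCA-salt in male CSF and -0.75 in female CSF.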

How the results depend on the processing

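Of 437 values over 41 results, 302 kept their direction and side of the threshold, 35 reversed, 31 lost and 4 gained a call, and 65 moved. Scaling mattered most for the family, and causes were not tested. Calls within a fluid rest on 1 residual degree of freedom, and miR-125a-3p on 18 to 49 UMIs a library. The labels give no replicate numbers, so libraries were paired between the fluids by sex and treatment, in a fit with a block per combination.

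CSF over plasma (log2 fold change, edgeR adjusted p): with total-count scaling -0.15, -0.23 and -0.65 for miR-125a-5p, miR-125b-5p and miR-125a-3p; as shares -0.17, -0.26 and -0.997. The guides lost their calls outside the muscle list (0.71 and 0.71), without a count filter (1.52, adjusted p = 0.0506, and 1.66, adjusted p = 0.0642), with reads (1.49, adjusted p = 0.0504, and 1.64, adjusted p = 0.0702) and with the condition block (1.53, adjusted p = 0.0693, and 1.43, adjusted p = 0.159). With sex and treatment as terms miR-125b-5p stood at 1.44 (adjusted p = 0.114). By DESeq2's Wald test miR-125a-3p passed at 0.83 (adjusted p = 0.0409). With 1 library left out the values ran from 1.10 to 1.82 for miR-125a-5p, from 1.02 to 1.99 for miR-125b-5p and from 0.48 to 1.01 for miR-125a-3p, which passed without the baseline male of CSF. Mean levels of miR-125a-5p, miR-125b-5p and miR-125a-3p became 23071, 33286 and 92.0 CPM in CSF and 25165, 38389 and 137 CPM in plasma with total-count scaling, against 42651, 71238 and 136 CPM and 15005, 23105 and 79.1 CPM with TMM.

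Male over female in CSF: with total-count scaling 0.88 for miR-125b-5p, -0.36 for miR-125a-5p and -2.08 for miR-125a-3p. miR-125b-5p also lost its call with reads (1.98, adjusted p = 0.123) and with sex as the only term (2.10, adjusted p = 0.178), and ran from 1.59 to 2.56 with 1 library left out. In plasma miR-125a-3p turned to 0.22 with total-count scaling. The sex effect in CSF over that in plasma was with total-count scaling 1.41 for miR-125b-5p, -0.15 for miR-125a-5p and -2.29 for miR-125a-3p, which passed (adjusted p = 0.0229). For miR-125b-5p it was 3.11 with reads (adjusted p = 0.0880) and 2.90 with treatment as one common term (adjusted p = 0.0725), and ran from 2.58 to 3.44 with 1 library left out, against -1.62 to 0.15 for miR-125a-3p.

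DOCA-salt over baseline: miR-125a-3p turned in CSF to -0.014 with total-count scaling and -0.17 with treatment as the only term, and in plasma to 0.069 in the joint fit. The DOCA-salt effect in CSF over that in plasma turned to -0.069 for it with sex as one common term. With 1 library left out, treatment was the only term within a fluid, so the difference between the sexes enters those values. CSF values then ran from -0.55 to 1.15 for miR-125a-5p, from -0.98 to 1.81 for miR-125b-5p and from -0.79 to 1.04 for miR-125a-3p. Plasma values of miR-125a-3p ran from -0.10 to 0.10. The difference between fluids ran from -1.26 to 0.46 for miR-125a-5p, from -0.64 to 0.21 for miR-125b-5p and from -0.72 to 1.04 for miR-125a-3p.

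Ratios: with reads in place of UMIs those of miR-125a-5p to let-7e-5p (2.28) and miR-99b-5p (1.29) and of miR-125b-5p to let-7c-5p (0.75) and miR-99a-5p (-1.03) stood at an adjusted p of 0.05, which is not under the threshold, and that to miR-100-5p turned to -1.23. With 1 library left out the smallest possible p is 0.0571. The ratio of the 2 guides then ran from -0.22 to 0.34 and that of miR-125b-5p to miR-100-5p from -0.18 to 0.31.

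Counts of miRNAs past the threshold, for DOCA-salt over baseline in CSF, the same in plasma, male over female in CSF, the same in plasma, the DOCA-salt effect between fluids and the sex effect between fluids, were 2, 15, 54, 2, 0 and 12. They were 0, 1, 27, 0, 1 and 21 by DESeq2's Wald test, 4, 29, 34, 10, 3 and 27 without a count filter, 0, 0, 5, 0, 0 and 0 with reads, and 0, 0, 359, 0, 2 and 321 with total-count scaling. DESeq2's size factors gave 0, 29, 5, 2 and 21 for all but male over female in CSF. The joint fit gave 0, 0, 30 and 0 for the first 4, a single term gave 0 for each of these, and treatment as one common term gave 1 for the last. With 1 library left out they ran from 0 to 1, 0 to 73, 0 to 30, 0 to 28, 0 to 3 and 0 to 9. For CSF over plasma the count, 593, ran from 531 to 797 over all alternatives.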

Other observations

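Reads per UMI of the guides were 1.19 to 1.75 in CSF and 3.73 to 5.71 in plasma, so a UMI of plasma was read more often than one of CSF.

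In plasma the share of miR-351-5p was 0.0206% ± 0.000388 of UMIs (SD, n = 4), while that of miR-125b-5p was 3.84% ± 1.14. The plasma shares of miR-351-5p rest on 33 to 68 UMIs a library, against 3927 to 17787 for miR-125b-5p. For the baseline male of plasma the counting interval of miR-351-5p ran from 0.0143% to 0.0292%, far wider than that SD. The small SD therefore cannot show that the share was constant. In CSF miR-351-5p held 0.00355% ± 0.00110.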
